A study of Saccharomyces cerevisiae with 12 samples.

Results

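T73 is a commercial wine strain of the budding yeast Saccharomyces cerevisiae, and its transcript profile was followed between 2 times of one fermentation, 96 h and 48 h. The comparison takes all arrays whose titles name strain T73, which are 6 of the 12 in the series, with 3 biological replicates at 96 h and 3 at 48 h. The other 6 arrays carry strain ITD00185 at the same times, again with 3 arrays per time. All cultures grew in a synthetic agave must at 28 ºC, and no other treatment is named in the labels. Neither the genotype nor the ploidy of the strains is given there. Total RNA of the strain was labelled with Cy5 and hybridized together with a Cy3-labelled mix of samples of the same time, whose makeup is not stated. The values are log2 ratios of the 2 channels, likely with the strain on top, as is usual when the sample is the first channel of an array. Every direction below rests on that reading. Because the mix of 96 h is not the mix of 48 h, each change given here is one of ratios to 2 mixes, not of expression alone. In the difference between the changes of the 2 strains the mixes fall out of the values as deposited, if the arrays of each time share one mix.

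During alcoholic fermentation yeast takes up hexoses, ferments them to ethanol through glycolysis, and stops dividing long before the sugar is used up, usually when nitrogen runs short. Cells that leave growth make fewer ribosomes and turn on genes for stress resistance, storage carbohydrates and poorer nutrients. Enzymes that are repressed by glucose, such as invertase and those of respiration, become active as the sugar falls. The comparison asks which of these groups changed their place relative to the mix between the times in the wine strain.

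The arrays of the 2 times differed in width before any gene was tested. The standard deviation over probes was 1.31, 1.30 and 1.14 on the 96 h arrays of T73, against 1.91, 2.08 and 1.80 on the 48 h arrays. Medians were 0.01, -0.03 and -0.01 at 96 h, against 0.25, 0.43 and 0.22 at 48 h. Across probes the replicates correlated at r of 0.83 to 0.86 at 96 h, 0.76 to 0.83 at 48 h and 0.50 to 0.75 between the times. One array of the other strain stood apart. The library labelled ITD00185 48 h replicate 2 correlated at 0.40 and 0.50 with replicates 1 and 3 of its group, and at 0.81, 0.82 and 0.84 with the ITD00185 arrays of 96 h, so that it lay with the later time. The main results on the difference between the strains' changes are given with and without it. Standard errors and adjusted p of the T73 changes also rest on it, through a variance shared by both strains. For the T73 changes only counts of called genes are given without it. The median standard deviation of a gene over its 3 arrays was 0.24 at 96 h and 0.44 at 48 h. Of 22 T73 values beyond 10 in size, 3 were at 96 h and 19 at 48 h, 11 of them on replicate 2. Since a wider array moves every gene away from the centre, each change is given as deposited and with all arrays centred and scaled to one spread. The median change over all genes was -0.30 as deposited and 0.03 scaled.

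Of 5474 genes tested in a linear model over all 12 arrays, 1772 (32.4%) changed in T73 as deposited at an adjusted p under 0.05 (limma, Benjamini-Hochberg). Of these, 461 (8.42%) were higher and 1311 (23.9%) lower at 96 h, and 1534 changed by 2-fold or more. With each array only centred on its median, the split was 878 higher and 873 lower. With arrays scaled to one spread, 818 genes (14.9%) changed, 322 (5.88%) higher and 496 (9.06%) lower. Both scales called 619 genes (11.3%) in the same direction, 164 (3%) higher and 455 (8.31%) lower, and 0 genes in opposite directions. Among 5013 genes with all 6 values, the 96 h and 48 h arrays did not overlap for 2699 (53.8%) as deposited and 2564 (51.1%) scaled. In fits of the 6 T73 arrays alone, both scales called 994 genes, 566 of them among the 619. These counts depended on single arrays. As deposited, 925 genes were called without T73 96 h replicate 1, 939 without T73 96 h replicate 3 and 995 without T73 48 h replicate 2. On both scales the number was 55 without T73 96 h replicate 1, 357 without T73 96 h replicate 2, 142 without T73 96 h replicate 3, 347 without T73 48 h replicate 1 and 134 without T73 48 h replicate 2. It was 371 without replicate 3 of ITD00185 at 96 h and 1268 without its replicate 2 at 48 h. The deposited call of 452 of the 619 held without each single T73 array, and the calls on both scales of 53. Of the 80 genes named below as called on both scales, 61 kept the deposited call without each T73 array and 77 were also called on both scales in T73 arrays alone (not SOD2, PAU13 and RPL23A). The scaled call held without each T73 array for 17 of them, which are SUC2, RGI2, CMC2, MPC3, GNP1, GLE1, SDA1, NUP133, SDC25, RAD53, GSY1, RPC82, MDH2, ADH5, MET3, ATG26 and RPL23B. It was lost for 62 of the 80 without T73 96 h replicate 1, for 17 without replicate 2 and 44 without replicate 3 of that time, and for 25, 50 and 13 without replicates 1, 2 and 3 of T73 at 48 h.

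Among the 10 genes named for the largest rises from 48 h to 96 h were those of invertase, of the pyruvate carrier of respiring mitochondria and of enzymes and a permease for amino acids. The ratio of SUC2 (YIL162W) was 3.49, 3.17 and 2.79 at 96 h, against 0.63, -0.90 and 0.83 at 48 h. SUC2 encodes invertase, the enzyme that splits sucrose and fructans outside the cell. Its change was 2.97 ± 0.48 as deposited and 3.87 scaled (adjusted p 0.00269 and 0.00556, limma). Here and in what follows ± gives the standard error of the fit, with 3 arrays per time. RGI2 (YIL057C) stood at 2.41, 2.44 and 2.11 at 96 h, against -0.16, 0.57 and -1.08 at 48 h. RGI2, a gene induced during respiratory growth, rose by 2.54 ± 0.37, or 3.24 scaled. On the 3 arrays of 96 h MPC3 (YGR243W) had log2 ratios of 1.50, 1.16 and 0.97, against -1.10, -1.11 and -0.80 at 48 h. The MPC3 product is the subunit of the mitochondrial pyruvate carrier used in respiration, and its ratio rose by 2.21 ± 0.26 (2.44 scaled) with replicates close together at both times. At 96 h CMC2 (YBL059C-A) gave 0.44, 1.19 and 1.57, against -0.60, -1.83 and -1.09 at 48 h. CMC2, which acts in the assembly of cytochrome c oxidase, rose by 2.24 ± 0.37 (2.40 scaled). EMI2 (YDR516C) measured 0.83, 0.74 and 0.61 at 96 h, against -0.89, -1.10 and -0.83 at 48 h. EMI2 is a relative of the glucokinase GLK1 and rose by 1.67 ± 0.39 (1.82 scaled).

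Values for MET17 (YLR303W) were 1.70, 1.82 and 2.16 at 96 h, against 0.13, -0.78 and 0.21 at 48 h. MET17 makes homocysteine from sulfide, and its change of 2.04 ± 0.55 was 2.63 scaled. The ratio of GNP1 (YDR508C) was 2.02, 2.31 and 2.23 at 96 h, against 1.01, -0.34 and 0.21 at 48 h. The glutamine permease GNP1 rose by 1.89 ± 0.35, or 2.66 scaled. LEU2 (YCL018W) stood at 0.02, 0.33 and 0.67 at 96 h, against -1.39, -2.04 and -1.47 at 48 h. For the leucine gene LEU2, positive on 3 of 3 arrays at 96 h and negative on 3 of 3 at 48 h, the change was 1.97 ± 0.28 (1.86 scaled). Outside metabolism, SEC9, a membrane fusion protein of secretion, rose by 1.82 ± 0.52 (2.69 scaled), and GLE1, needed for export of messenger RNA, by 1.84 ± 0.26 (1.76 scaled). These 10 genes were chosen among those whose arrays of the 2 times did not overlap on either scale, so their lack of overlap is no result. The deposited call was lost for MET17 without replicate 3 of 96 h or replicate 2 of 48 h (smallest change 1.72, adjusted p up to 0.0686) and SEC9 without replicates 1 or 3 of 96 h or replicates 1 or 2 of 48 h (smallest change 1.70, adjusted p up to 0.0751). Where the values of all 6 arrays are given for a gene in what follows, the arrays of the times did not overlap unless stated. For genes named by rule this was likewise a condition of the choice.

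**Figure D1:**
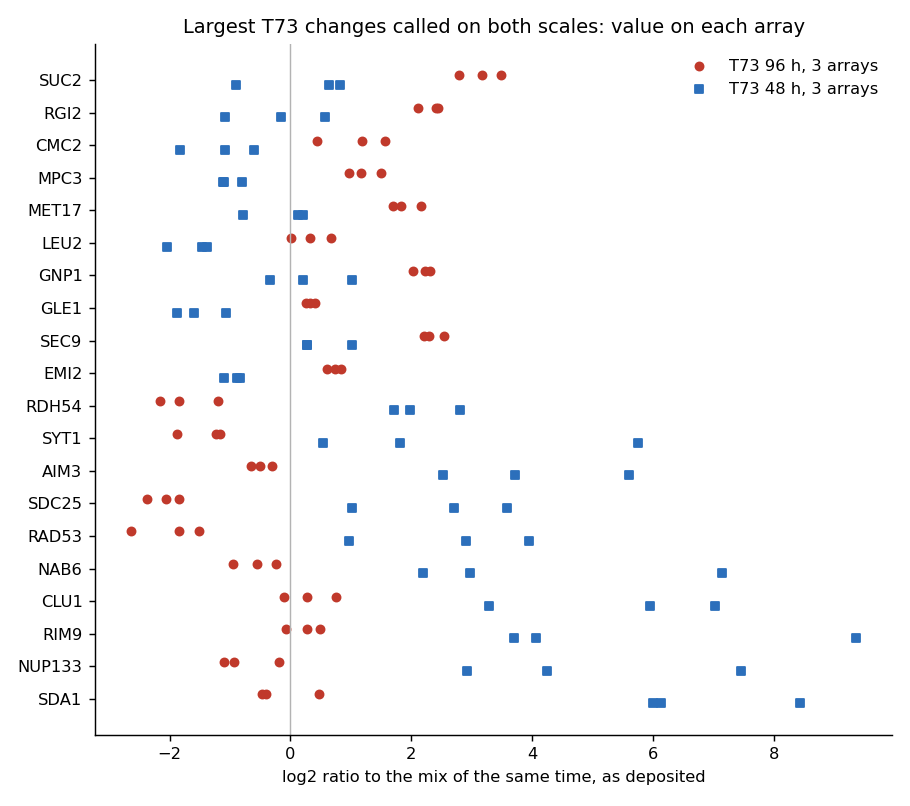
Log2 ratio to the mix of the same time on each of the 6 T73 arrays (x axis, as deposited) for the 10 genes named for the largest rises and the 10 for the largest falls from 48 h to 96 h (rows), 96 h as circles above and 48 h as squares below. Rows were chosen among genes whose 96 h and 48 h points do not overlap, and the 48 h points of the lower genes are the most widely spread.

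The 10 genes named for the largest falls included those for ribosome assembly, the nuclear pore, signalling and DNA repair. On the 3 arrays of 96 h SDA1 (YGR245C) had log2 ratios of -0.40, 0.48 and -0.47, against 8.43, 5.99 and 6.14 at 48 h. All 3 values at 96 h lay close to the mix and all 3 at 48 h far above it. The ratio of SDA1, which acts in assembly of the large ribosomal subunit, fell by 6.98 ± 0.82 (-4.89 scaled, adjusted p 0.00133 and 0.00767, limma). At 96 h NUP133 (YKR082W) gave -0.94, -0.18 and -1.10, against 7.46, 4.25 and 2.93 at 48 h. NUP133, of the nuclear pore, fell by 5.62 ± 0.87 (-4.15 scaled). SDC25 (YLL016W) measured -2.38, -2.07 and -1.85 at 96 h, against 3.58, 2.70 and 1.02 at 48 h. The Ras exchange factor SDC25 fell by 4.53 ± 0.57 (-3.97 scaled). Values for RAD53 (YPL153C) were -1.84, -1.51 and -2.63 at 96 h, against 2.91, 3.94 and 0.97 at 48 h. RAD53 is the checkpoint kinase for DNA damage and fell by 4.60 ± 0.65 (-3.96 scaled), with replicate 3 lowest at both times. The ratio of RDH54 (YBR073W) was -1.84, -1.20 and -2.15 at 96 h, against 1.72, 2.81 and 1.97 at 48 h. RDH54, a DNA translocase of recombination, fell by 3.90 ± 0.57 (-3.38 scaled). RIM9 (YMR063W) stood at 0.49, -0.08 and 0.28 at 96 h, against 4.07, 9.36 and 3.70 at 48 h. RIM9, of the pathway that senses external pH, fell by 5.48 ± 1.17 (-3.49 scaled), with 1 array of 48 h far above the other 2. SYT1, an exchange factor for Arf proteins, NAB6, a putative RNA-binding protein, CLU1, which acts in mitochondrial distribution, and AIM3, of actin patches, completed the set. Their changes were -4.13 ± 0.99, -4.69 ± 1.00, -5.11 ± 0.85 and -4.44 ± 0.67 as deposited, and -3.37, -3.32, -3.25 and -3.16 scaled. The call as deposited held for all 10 genes without each single T73 array. With scaled arrays it was lost without at least 1 of them for RIM9, RDH54, SYT1, NAB6, CLU1 and AIM3.

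Coding length, taken here as the span of a gene from start to end with any introns, moved with the change. Among genes with a length in the reference annotation, the median was 2172 bases for 444 genes called lower on both scales, 974.5 for 148 called higher and 1179 for the 4535 others. Genes were split by length into 5 classes of near-equal size. In the longest class (2079 bases or more), 22.5% were lower and 2.05% higher on both scales. In the shortest (up to 663 bases), 1.75% were lower and 4.95% higher. Across genes, Spearman's rho between ratio and length was -0.25, -0.15 and -0.18 on the 96 h arrays of T73, against -0.02, 0.01 and 0.00 on the 48 h arrays. On the ITD00185 arrays it ran from -0.11 to -0.06 at both times. These coefficients describe genes of one array, which share their library. With the trend on length removed from each array, both scales called 567 of 5127 genes, 230 higher and 337 lower. Among the 619 genes, 395 were called again in the same direction, 99 of 164 higher ones and 296 of 455 lower ones. Of the 80 named genes called on both scales, 65 kept that call. Lost calls are named below, but of the calls kept at a smaller value only some are. The labels give no measure of RNA quality, and the part of RNA length or amplification in these changes was not tested.

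**Figure D2:**
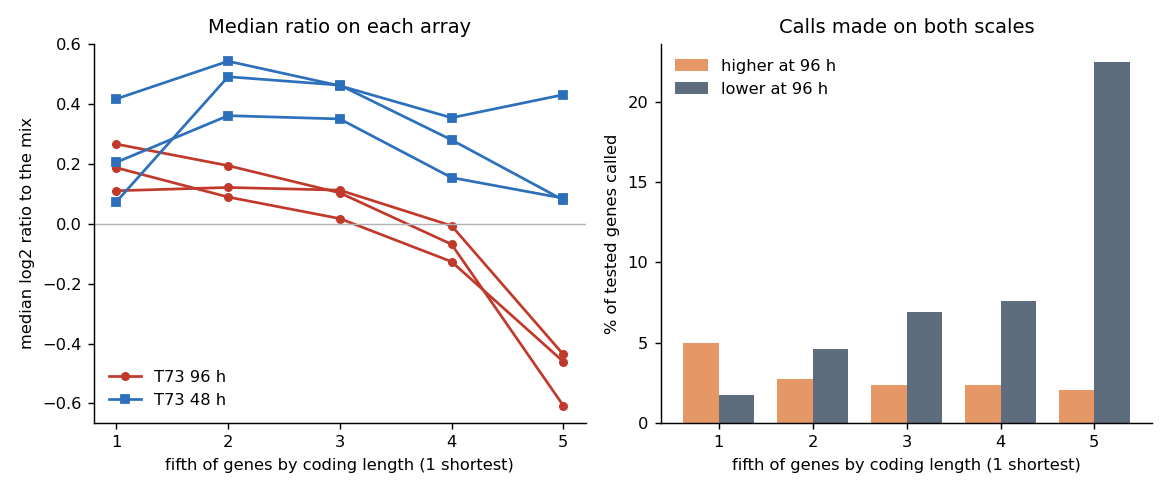
Left, median log2 ratio to the mix of the same time (y axis) in 5 classes of coding length (x axis, counted with any introns) for each T73 array, 96 h as circles and 48 h as squares. Right, percent of tested genes called higher or lower at 96 h on both scales; the longest class has 22.5% lower genes against 1.75% in the shortest.

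In the lists of sucrose and maltose use and of hexose transport, invertase, a maltase and the transporter HXT4 were higher on both scales. Counts of this and the following lists stand against all genes tested, of which 8.42% were higher and 23.9% lower as deposited, and 5.88% and 9.06% scaled. Of 12 genes for sucrose and maltose use, 5 were higher and 0 lower as deposited, and 2 and 0 scaled, with medians of 0.76 and 0.47. Beside SUC2 the maltase MAL32 was called on both scales (1.06 ± 0.25, 0.96 scaled), though MAL genes have close copies that a probe may not separate. Of 20 genes of hexose transport and its regulators, 7 were higher and 1 lower as deposited, and 1 higher and 2 lower scaled. On the 3 arrays of 96 h HXT4 (YHR092C) had log2 ratios of 0.72, 0.41 and -0.03, against -0.52, -1.32 and -0.65 at 48 h. The transporter HXT4 rose by 1.20 ± 0.30, or 1.30 scaled. The low-affinity transporter HXT1 changed by 1.11 ± 0.31, HXT5, a transporter of slow growth, by 1.29 ± 0.45, and the high-affinity HXT7 by 1.30 ± 0.36. Scaled, these 3 missed the threshold at 0.78, 0.28 and 0.86. HXT genes are also near-identical in part. On the deposited scale the call was lost for MAL32 without replicate 1 of 96 h (smallest change 0.90, adjusted p up to 0.0515), HXT4 without replicate 1 of 96 h or replicate 2 of 48 h (smallest change 0.95, adjusted p up to 0.0619) and HXT1 without replicates 1 or 2 of 96 h or replicate 2 of 48 h (smallest change 1.01, adjusted p up to 0.0738). As deposited, the T73 call was lost for HXT5 without replicates 1, 2 or 3 of 96 h or replicates 2 or 3 of 48 h (smallest change 0.96, adjusted p up to 0.13) and HXT7 without replicates 1 or 2 of 96 h or replicate 2 of 48 h (smallest change 1.08, adjusted p up to 0.0786).

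Glycolysis and alcohol formation showed few calls among the enzymes, with list medians above those of all genes. The regulators GCR1 and PDC2 were lower. Of 24 genes of glycolysis, 2 were higher and 4 lower as deposited, and 2 and 2 scaled. The medians were 0.58 as deposited and 0.61 scaled, against -0.30 and 0.03 over all genes. At 96 h GLK1 (YCL040W) gave 0.60, 0.32 and 0.63, against -0.98, -1.56 and -0.77 at 48 h. The glucokinase GLK1 rose by 1.62 ± 0.41 (1.69 scaled). GCR1 (YPL075W) measured -0.10, 0.54 and 0.34 at 96 h, against 2.95, 3.19 and 3.03 at 48 h. GCR1, the activator of glycolytic genes, fell by 2.80 ± 0.45 (-1.64 scaled). The kinase PFK26, which makes the signal molecule fructose 2,6-bisphosphate, fell by 2.70 ± 0.49 (-1.91 scaled). Of 15 genes of pyruvate decarboxylation, alcohol and acetaldehyde dehydrogenases, 1 was higher and 2 lower as deposited, and 1 and 3 scaled. Their medians were 0.33 as deposited and 0.51 scaled. PDC2, which activates pyruvate decarboxylase and thiamine genes, fell by 2.49 ± 0.40 (-1.78 scaled), and the minor alcohol dehydrogenase ADH5 rose by 1.53 ± 0.26 (1.73 scaled). The main alcohol dehydrogenases did not pass, ADH1 at 0.85 ± 0.48 (1.01 scaled) and ADH2, which oxidizes ethanol, at 0.75 ± 0.47 (0.75 scaled). As deposited, the T73 call was lost for GLK1 without replicate 3 of 96 h or replicate 2 of 48 h (smallest change 1.39, adjusted p up to 0.0547). When the length trend was taken out the call on both scales was lost for GCR1 (-1.93, -1.01 scaled).

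Among genes of the citric acid cycle and of growth without sugar, the shares lower as deposited stood near or below that of all genes. Over all genes tested 8.42% were higher and 23.9% lower as deposited, and 5.88% and 9.06% scaled. Of 25 citric acid cycle genes, 7 (28%) were higher and 6 (24%) lower as deposited, and 2 (8%) and 3 (12%) scaled. Values for CIT2 (YCR005C) were 0.89, 0.41 and 0.05 at 96 h, against -1.36, -1.11 and -0.55 at 48 h. CIT2, the citrate synthase of peroxisomes, rose by 1.45 ± 0.32 (1.52 scaled). A pair of malate dehydrogenases fell, the mitochondrial MDH1 by 2.43 ± 0.48 (-1.78 scaled) and the cytosolic MDH2 by 1.71 ± 0.33 (-2.03 scaled). Of 20 genes of gluconeogenesis and the glyoxylate cycle, 6 (30%) were higher and 1 (5%) lower as deposited, and 3 (15%) and 1 (5%) scaled. The ratio of FBP1 (YLR377C) was -0.22, -0.87 and -0.21 at 96 h, against -2.14, -2.08 and -1.65 at 48 h. Fructose bisphosphatase, encoded by FBP1, is an enzyme of gluconeogenesis, and its ratio rose by 1.52 ± 0.31 (1.18 scaled). Of 52 genes of the respiratory chain and ATP synthase, 8 (15.4%) were higher and 10 (19.2%) lower as deposited, and 2 (3.85%) and 3 (5.77%) scaled. On both scales 2 of the 52 were higher and 2 lower, against 3% and 8.31% over all genes. COX5A, the aerobic form of a cytochrome c oxidase subunit, rose by 1.59 ± 0.35 (1.10 scaled). The 2 lower genes changed by -1.74 and -1.98 as deposited (-1.20 and -1.28 scaled). After removal of the length trend the call on both scales was lost for FBP1 (1.85, 1.03 scaled) and COX5A (1.70, 0.76 scaled). In that fit 0 of the 52 respiratory genes were higher and 5 lower on both scales, against 230 and 337 of 5127 genes.

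Sulfur assimilation and branched-chain amino acid synthesis were among the lists with more higher than lower genes on both scales. Of 38 genes of sulfur assimilation and methionine synthesis, 5 were higher and 2 lower as deposited, and 9 and 0 scaled, where 5.88% of all genes were higher. The medians were 0.15 and 0.58. MET3 (YJR010W) stood at 3.76, 3.38 and 3.87 at 96 h, against 2.13, 2.28 and 2.40 at 48 h. ATP sulfurylase, encoded by MET3, was above the mix on all 6 arrays, and rose by 1.40 ± 0.30 as deposited and 3.02 scaled. The methionine permease MUP1 rose by 1.33 ± 0.38 (1.77 scaled). Of 12 genes of branched-chain amino acid synthesis, 6 were higher and 0 lower as deposited, and 3 and 0 scaled, with medians of 0.88 and 1.00. LEU9, a synthase of the leucine pathway, rose by 1.61 ± 0.35 (1.38 scaled). Of 19 amino acid permeases, 6 were higher and 1 lower as deposited, and 3 and 0 scaled. On the 3 arrays of 96 h BAP2 (YBR068C) had log2 ratios of -1.72, -1.56 and -1.41, against -3.35, -3.97 and -4.09 at 48 h. BAP2 imports branched-chain amino acids, and its ratio, below the mix on all 6 arrays, rose by 2.24 ± 0.27 (1.18 scaled). The deposited call was lost for MUP1 without replicates 1, 2 or 3 of 96 h or replicate 2 of 48 h (smallest change 1.02, adjusted p up to 0.0848).

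Of 41 genes repressed by good nitrogen sources, 2 were higher and 12 (29.3%) lower as deposited, and 3 and 3 scaled. Over all genes 23.9% were lower as deposited, and the list median of -0.40 stood beside -0.30 over all genes. At 96 h PUT1 (YLR142W) gave -1.07, -0.94 and -1.00, against 2.33, 3.95 and 1.65 at 48 h. PUT1, the first enzyme of proline use, fell by 3.64 ± 0.68 (-2.80 scaled). DAL82, an activator of allantoin genes, fell by 3.59 ± 0.56 (-2.62 scaled). The general amino acid permease GAP1 changed by -1.12 ± 0.31 as deposited, and -0.67 scaled did not pass. For the allantoate permease DAL5 the change was -1.02 ± 0.32 as deposited and turned to 0.77 scaled, which did not pass. ASP3-1 (YLR155C) measured 1.74, 1.34 and 1.01 at 96 h, against 1.89, 1.23 and 1.43 at 48 h. The asparaginase ASP3-1, which has near-identical copies, overlapped between the times as deposited and did not pass (-0.16 ± 0.29, adjusted p 0.694, limma). Scaled, its arrays did not overlap and its value was of opposite sign, at 0.79, also without passing (adjusted p 0.208). On the deposited scale the call was lost for GAP1 without replicates 2 or 3 of 96 h (smallest change -1.05, adjusted p up to 0.0684) and DAL5 without replicates 1, 2 or 3 of 96 h or replicates 2 or 3 of 48 h (smallest change -0.88, adjusted p up to 0.0968).

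As deposited, 16 of 33 chaperone genes and 20 of 36 proteasome genes were lower at 96 h, and 2 and 1 once the arrays had one spread. Of 33 heat shock proteins and chaperones, 1 was higher and 16 lower as deposited, and 1 and 2 scaled, with medians of -1.26 and -0.36. Over all genes 23.9% were lower as deposited and 9.06% scaled. Values for HSP104 (YLL026W) were -0.10, -0.07 and 0.19 at 96 h, against 2.61, 3.81 and 2.81 at 48 h. HSP104, which dissolves protein aggregates, was near the mix at 96 h and far above it at 48 h, and fell by 3.07 ± 0.54 (-1.94 scaled). SSE2, an exchange factor for Hsp70, fell by 2.83 ± 0.51 (-1.98 scaled). HSP12, a small membrane-bound stress protein, changed by -1.37 ± 0.42 as deposited, and -0.64 scaled did not pass. The ratio of SSA4 (YER103W) was 2.45, 2.44 and 2.62 at 96 h, against 4.46, 4.82 and 3.56 at 48 h. The Hsp70 gene SSA4 stayed above the mix throughout and did not pass on either scale. Its value was -1.78 ± 0.64 as deposited (adjusted p 0.0538, limma) and of opposite sign scaled, at 0.18 (adjusted p 0.888), where its arrays overlapped. The small chaperone HSP26 stood at -0.24 ± 0.47 (-0.89 scaled) and did not pass. Of 36 proteasome genes, 0 were higher and 20 lower as deposited, and 0 and 1 scaled, with medians of -1.10 and -0.17. The one called on both scales was RPN3, a lid subunit (-2.85 ± 0.55, -1.55 scaled). As deposited, the T73 call was lost for HSP12 without replicates 1 or 3 of 96 h or replicates 1 or 2 of 48 h (smallest change -1.09, adjusted p up to 0.115). Once the trend on coding length was removed the call on both scales was lost for HSP104 (-2.30, -1.43 scaled).

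Stationary phase genes and targets of Msn2 and Msn4, the general stress activators, did not move as one. Of 39, 7 were higher and 9 lower as deposited, and 3 and 4 scaled, with medians of 0.15 and -0.15. SPI1 (YER150W) stood at -0.64, -0.83 and -0.92 at 96 h, against -2.67, -3.44 and -2.62 at 48 h. The cell wall gene SPI1, below the mix on all 6 arrays, rose by 2.11 ± 0.38 (1.42 scaled), and HOR7 by 1.30 ± 0.31 (1.39 scaled). On the 3 arrays of 96 h RIM15 (YFL033C) had log2 ratios of -2.52, -2.30 and -2.15, against 0.71, 1.27 and -0.72 at 48 h. The kinase RIM15, which directs entry into stationary phase, fell by 2.75 ± 0.51 (-2.77 scaled). FMP16 fell by 1.92 ± 0.48 (-1.92 scaled), and the hydrophilin GRE1 stood at 0.28 ± 0.52 as deposited and -0.85 scaled, of opposite sign, without passing on either. In storage carbohydrates, with 2 of 18 higher and 4 lower as deposited and 2 and 1 scaled, the glycogen synthase GSY1 rose by 1.36 ± 0.33 (2.41 scaled) and the acid trehalase ATH1 fell by 2.26 ± 0.49 (-1.99 scaled). Of 33 genes of defence against oxidants, 7 were higher and 7 lower as deposited, and 4 and 2 scaled. The superoxide dismutases moved apart, the cytosolic SOD1 rising by 1.26 ± 0.24 (0.85 scaled) and the mitochondrial SOD2 falling by 1.43 ± 0.39 (-1.35 scaled). SOD2 was not called on both scales in T73 arrays alone. The deposited call was lost for FMP16 without replicate 3 of 96 h (smallest change -1.76, adjusted p up to 0.0523) and SOD2 without replicates 1 or 3 of 96 h or replicates 1 or 2 of 48 h (smallest change -1.06, adjusted p up to 0.0661). Without the trend on length the call on both scales was lost for HOR7 (0.96, 0.87 scaled) and SOD1 (1.36, 0.51 scaled), but it was kept at a smaller value for RIM15 (-1.62, -1.82 scaled) and ATH1 (-1.30, -1.29 scaled).

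Cytosolic ribosomal protein genes had the largest shift of the median between the scales of all lists compared. Of 126, 5 were higher and 13 lower as deposited with a median of -0.14, but 36 were higher and 0 lower scaled with a median of 0.92. The scaled share higher over all genes was 5.88%. List medians on single arrays were 1.56, 1.42 and 1.52 at 96 h, against 1.86, 1.59 and 1.46 at 48 h, so that the times overlapped as deposited. At 96 h RPL23B (YER117W) gave 3.06, 2.70 and 3.13, against 2.22, 1.53 and 2.11 at 48 h. RPL23B, of the large subunit, rose by 1.01 ± 0.29 (2.39 scaled), and its twin RPL23A by 0.85 ± 0.28 (2.14 scaled). RPP1A, of the ribosomal stalk, rose by 1.06 ± 0.34 (1.84 scaled), and RPL13A by 1.07 ± 0.29 (0.96 scaled). Genes named A and B are close copies, which a probe may not separate, yet count here as separate genes. With the trend on length removed, 12 were higher and 9 lower as deposited, and 27 and 0 scaled. Over all 5127 genes of that fit, 886 were higher and 810 lower as deposited, and 309 and 419 scaled. The share of ribosomal protein genes called higher was thus below that of all genes as deposited and above it scaled. The lengths used there count any introns as part of a gene. RPL23A was not called on both scales in T73 arrays alone. On the deposited scale the call was lost for RPL23B without replicates 1 or 3 of 96 h or replicate 2 of 48 h (smallest change 0.80, adjusted p up to 0.0848), RPL23A without replicates 1 or 3 of 96 h or replicate 2 of 48 h (smallest change 0.65, adjusted p up to 0.14) and RPP1A without replicates 1, 2 or 3 of 96 h or replicates 1 or 2 of 48 h (smallest change 0.86, adjusted p up to 0.121). As deposited, the T73 call was lost for RPL13A without replicates 2 or 3 of 96 h or replicate 2 of 48 h (smallest change 0.77, adjusted p up to 0.0707). When the length trend was taken out the call on both scales was lost for RPP1A (0.98, 1.52 scaled) and RPL13A (1.40, 0.80 scaled).

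Of 55 mitochondrial ribosomal protein genes, 4 were higher and 21 (38.2%) lower as deposited, with a median of -0.85, and 3 and 4 scaled, with a median of -0.20. Over all genes 23.9% were lower as deposited and 9.06% scaled. MRP51 (YPL118W) measured 0.47, 1.41 and 0.64 at 96 h, against 4.34, 4.58 and 4.65 at 48 h. MRP51, of the small subunit, fell by 3.68 ± 0.51 (-2.04 scaled), and MRPL10, of the large one, by 2.32 ± 0.38 (-1.00 scaled). Of 92 genes of ribosome biogenesis, 5 were higher and 26 (28.3%) lower as deposited, and 9 and 12 (13.0%) scaled, with medians of -0.63 and 0.17. Beside SDA1, the processing factors UTP20 (-2.84 ± 0.47, -2.72 scaled) and ERB1 (-3.71 ± 0.65, -2.30 scaled) fell. Of 35 genes of RNA polymerases I and III and their factors, 2 were higher and 10 lower as deposited, and 2 and 4 scaled, with RPC82 of polymerase III at -3.39 ± 0.47 (-2.39 scaled). Of 57 translation factors and tRNA synthetases, 1 was higher and 26 lower as deposited, and 0 and 7 scaled. The initiation factor TIF3 fell by 1.92 ± 0.28 (-1.06 scaled) and the seryl-tRNA synthetase SES1 by 2.38 ± 0.37 (-1.03 scaled). After removal of the length trend the call was kept at a smaller value for UTP20 (-1.60, -1.53 scaled).

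**Figure D3:**
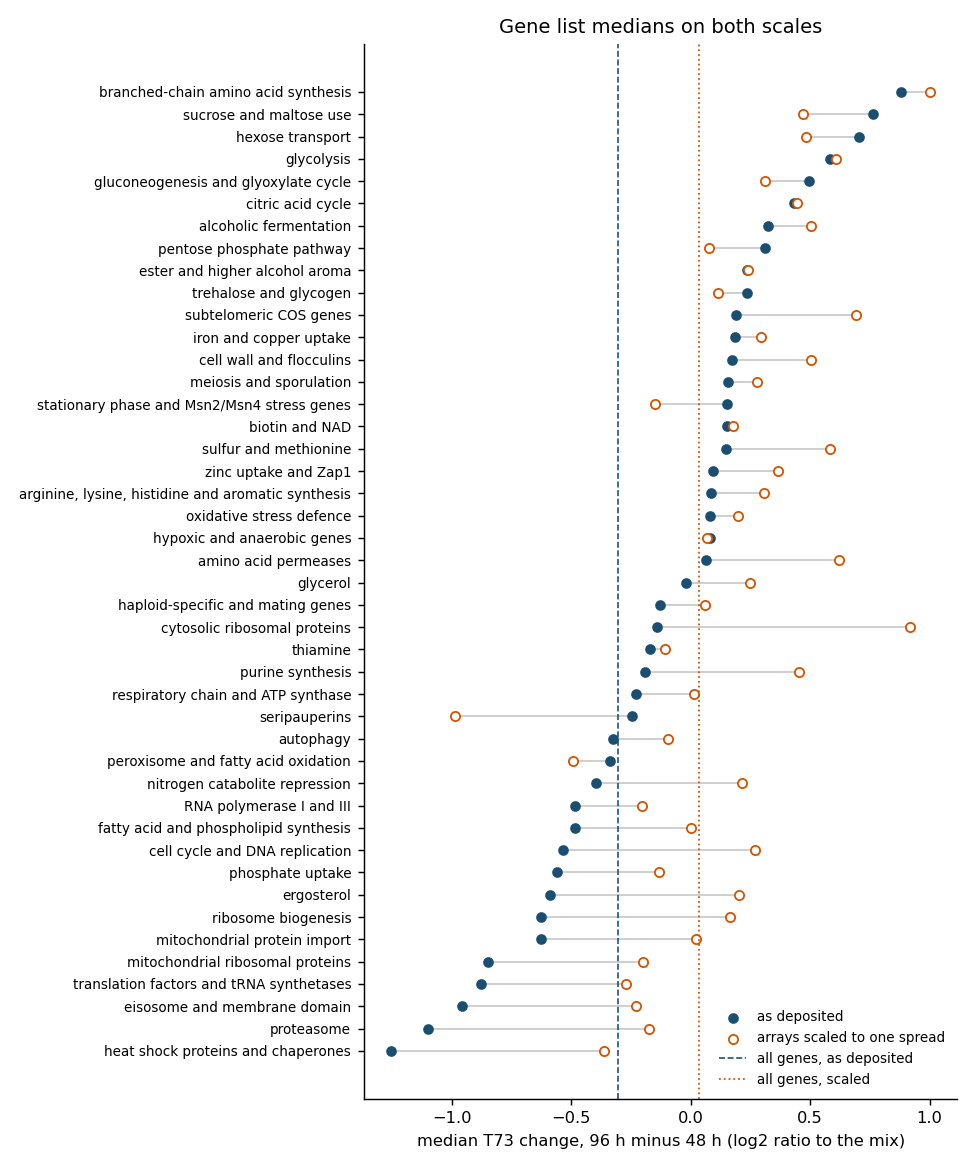
Median T73 change of each gene list (x axis, 96 h minus 48 h, log2 ratio to the mix), as deposited (filled) and with arrays scaled to one spread (open), lists ordered by the deposited value. The dashed and dotted lines mark all genes at -0.30 and 0.03; the list of cytosolic ribosomal proteins lies at -0.14 as deposited and at 0.92 scaled.

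Of 18 eisosome and membrane domain genes, which organize the plasma membrane, 1 was higher and 8 (44.4%) lower as deposited, and 0 and 6 (33.3%) scaled. All 6 were also called as deposited, where over all genes 8.31% were lower on both scales. Values for PKH1 (YDR490C) were -1.38, -0.91 and -1.33 at 96 h, against 2.39, 2.77 and 0.28 at 48 h. PKH1, a kinase that responds to sphingolipids, fell by 3.02 ± 0.58 (-2.44 scaled), and XRN1, the exonuclease that degrades decapped messenger RNA and is found at eisosomes, fell by 2.97 ± 0.54 (-2.16 scaled). The list had a median coding length of 1813.5 bases, against 1227 over all genes tested. With the trend on length removed, 3 of 18 were lower on both scales, against 337 of 5127 over all genes. Of 37 autophagy genes, 4 were higher and 10 (27.0%) lower as deposited, against 23.9% lower over all genes, and 0 and 7 (18.9%) scaled, against 9.06%. ATG1, the kinase that starts autophagy, fell by 1.28 ± 0.32 (-1.63 scaled) and the sterol glucosyltransferase ATG26 by 2.92 ± 0.47 (-2.56 scaled). With the trend removed, 3 of 37 were lower on both scales, near the share of 337 of 5127 over all genes. Of 24 phosphate genes, 0 were higher and 6 (25%) lower as deposited, and 0 and 5 (20.8%) scaled, among them VTC2, of polyphosphate synthesis (-1.76 ± 0.27, -1.06 scaled), and the kinase inhibitor PHO81 (-0.95 ± 0.25, -1.13 scaled). With the trend on length removed, 0 phosphate genes were called on both scales. As deposited, the T73 call was lost for ATG1 without replicate 1 of 96 h or replicate 2 of 48 h (smallest change -1.08, adjusted p up to 0.0549) and PHO81 without replicate 1 of 96 h or replicate 2 of 48 h (smallest change -0.84, adjusted p up to 0.0578). Once the trend on coding length was removed the call on both scales was lost for ATG1 (-0.52, -1.24 scaled), VTC2 (-1.07, -0.68 scaled) and PHO81 (-0.01, -0.47 scaled). It was kept at smaller values for XRN1 (-1.90, -1.25 scaled), PKH1 (-2.41, -2.18 scaled) and ATG26 (-1.97, -1.87 scaled).

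INO1, CHO1, ERG28 and ISU1 were among the genes of lipids, metals, vitamins and the cell wall that were higher on both scales. BIO4 and PAU13 were among those that were lower. The ratio of INO1 (YJL153C) was -0.32, -0.72 and -0.12 at 96 h, against -2.40, -2.53 and -1.67 at 48 h. INO1, which makes inositol phosphate, rose by 1.81 ± 0.43 (1.41 scaled), and the phosphatidylserine synthase CHO1 by 0.86 ± 0.29 (1.49 scaled). Of 26 genes of fatty acid and phospholipid synthesis, 3 were higher and 7 lower as deposited, and 2 and 3 scaled. On both scales 2 were higher, INO1 and CHO1, and 2 lower, against 3% and 8.31% over all genes. The 2 lower genes changed by -3.89 and -1.97 as deposited (-2.73 and -1.18 scaled). In the ergosterol list, with 1 of 29 higher and 6 lower as deposited and 2 and 0 scaled, the scaffold gene ERG28 rose by 1.12 ± 0.27 (1.41 scaled) and the azole target ERG11 did not pass (-0.95 ± 0.44, -0.20 scaled). ISU1, a scaffold of iron-sulfur clusters, rose by 1.49 ± 0.24 (1.01 scaled), in a list of 34 iron and copper genes with 9 (26.5%) higher and 3 lower as deposited and 2 and 0 scaled, where 8.42% of all genes were higher as deposited. The biotin gene BIO4 fell by 0.97 ± 0.31 (-1.68 scaled). Among 20 seripauperins, small subtelomeric genes with near-identical copies, 0 were higher and 1 lower as deposited. Scaled, 0 were higher and 8 (40%) lower, against 9.06% lower over all genes. As deposited, the list medians lay far below the mix and overlapped, at -2.39, -2.53 and -1.74 at 96 h, against -2.20, -1.59 and -2.01 at 48 h. PAU13 was the one called on both (-0.99 ± 0.33, -1.78 scaled), but not in T73 arrays alone. Of 44 genes of the cell wall and flocculation, 5 were higher and 2 lower as deposited, and 6 and 1 scaled. The deposited call was lost for CHO1 without replicates 1, 2 or 3 of 96 h or replicates 1 or 2 of 48 h (smallest change 0.78, adjusted p up to 0.119), BIO4 without replicates 1, 2 or 3 of 96 h or replicate 2 of 48 h (smallest change -0.75, adjusted p up to 0.121) and PAU13 without replicates 1, 2 or 3 of 96 h or replicates 1 or 2 of 48 h (smallest change -0.62, adjusted p up to 0.143). Without the trend on length the call on both scales was lost for BIO4 (-0.66, -1.96 scaled).

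Cell cycle genes and genes of cells in other states were also followed. Of 55 genes of the cell cycle and DNA replication, 4 were higher and 15 (27.3%) lower as deposited, and 6 and 5 scaled, where 23.9% and 9.06% of all genes were lower. The helicase subunit MCM2 fell by 2.77 ± 0.38 (-1.66 scaled) and the DNA polymerase POL2 by 1.69 ± 0.31 (-1.45 scaled), whereas histone HTA1 rose by 0.98 ± 0.27 (1.31 scaled). The G1 cyclin CLN3 did not pass, at -0.32 ± 0.24 as deposited and 1.00 scaled, values of opposite sign. Of 25 mating and haploid-specific genes, 2 were higher and 6 lower as deposited, and 0 and 3 scaled, among them the kinase STE7 (-2.36 ± 0.47, -1.82 scaled) and AXL1 (-1.75 ± 0.29, -1.63 scaled). The list medians were -0.18, -0.50 and -0.16 at 96 h, against 0.30, 0.18 and 0.10 at 48 h, as deposited, where the medians over all genes also stood lower at 96 h. Scaled, they were -0.19, -0.49 and -0.17 at 96 h, against 0.03, -0.17 and -0.13 at 48 h, and overlapped. Of 38 genes of meiosis and sporulation, 5 were higher and 4 lower as deposited, and 3 and 4 scaled. IME1, the master activator of meiosis, fell by 1.34 ± 0.34 (-1.45 scaled) and the crossover gene MSH5 by 3.33 ± 0.60 (-2.84 scaled), while SPO20, of spore membranes, rose by 2.03 ± 0.30 (1.08 scaled). On the deposited scale the call was lost for HTA1 without replicates 1 or 3 of 96 h or replicate 2 of 48 h (smallest change 0.86, adjusted p up to 0.0741) and IME1 without replicate 1 of 96 h (smallest change -1.08, adjusted p up to 0.0638). When the length trend was taken out the call on both scales was lost for POL2 (-0.48, -0.32 scaled), HTA1 (1.01, 1.00 scaled) and SPO20 (2.37, 0.90 scaled), but it was kept at a smaller value for AXL1 (-0.79, -0.94 scaled). RNA came from whole cultures, so fewer cells in a state and less RNA per cell cannot be told apart.

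Other lists were measured too, and over all genes 8.42% were higher and 23.9% lower as deposited, and 5.88% and 9.06% scaled. Among 40 genes of arginine, lysine, histidine and aromatic amino acid synthesis, 4 were higher and 4 lower as deposited, and 4 and 3 scaled. Purine synthesis had 0 of 24 higher and 5 lower as deposited, and 2 and 2 scaled. Peroxisome genes, with those of fatty acid oxidation, had 2 of 41 higher and 13 (31.7%) lower as deposited, and 1 and 4 scaled. Mitochondrial protein import had 4 of 37 higher and 6 lower as deposited, and 2 and 0 scaled. The hypoxic and anaerobic genes gave 2 of 25 higher and 1 lower as deposited, and 0 and 1 scaled. The genes of thiamine gave 0 of 21 higher and 2 lower as deposited, and 2 and 1 scaled, and those of zinc 1 of 15 and 3, and 0 and 1 scaled. The biotin and NAD list gave 2 of 16 higher and 3 lower as deposited, and 0 and 2 scaled. Genes of ester and higher alcohol aroma, which shape the smell of wine, gave 2 of 19 higher and 2 lower as deposited, and 0 and 2 scaled. Glycerol genes gave 0 of 13 higher and 3 lower as deposited, and 0 and 1 scaled, and those of the pentose phosphate pathway 0 of 17 higher and 2 lower as deposited, and 0 and 0 scaled. Of 8 subtelomeric COS genes, which have close copies, 0 were called as deposited and 1 was higher scaled.

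**Figure D4:**
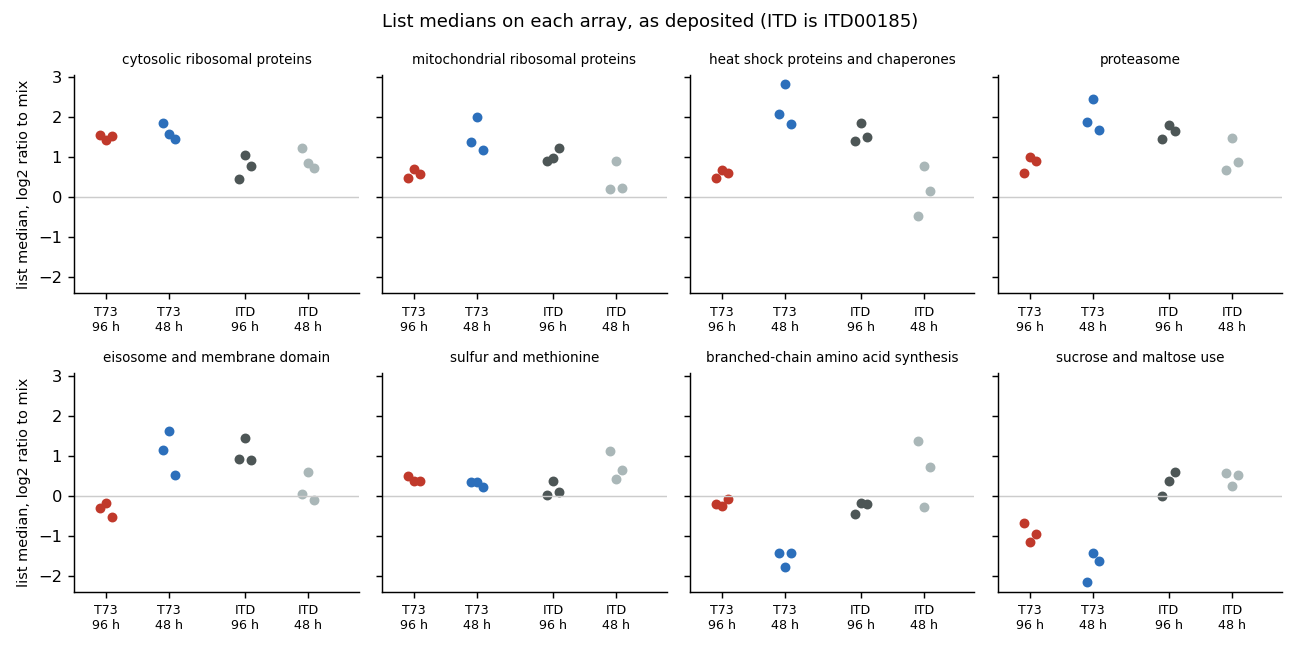
Median log2 ratio to the mix of the same time (y axis, as deposited) over the tested members of 8 gene lists on each array, T73 and then ITD00185 (shortened to ITD), 96 h left of 48 h. For chaperones the T73 points lie lower at 96 h than at 48 h, and for branched-chain amino acid synthesis they lie higher.

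The T73 change was then set against that of ITD00185 between the same times. It differed for 2080 of 5474 genes (38%) as deposited, with T73 higher for 747 (13.6%) and lower for 1333 (24.4%), and for 1305 (23.8%) scaled, 571 (10.4%) higher and 734 (13.4%) lower. As deposited, 1318 genes differed without T73 96 h replicate 1, 1264 without T73 96 h replicate 3, 1293 without replicate 2 of ITD00185 at 96 h and 1328 without its replicate 1 at 48 h. Without the library labelled ITD00185 48 h replicate 2, which lay with the 96 h arrays, 2903 differed as deposited, 1267 with T73 higher and 1636 lower, and 1410 were higher and 1303 lower scaled. Of the 619 T73 genes called on both scales, 509 also differed from ITD00185 in the same direction, 126 higher and 383 lower, and 0 the other way. Without that library the numbers were 525 and 0. The 2 contrasts share the T73 arrays, so these counts are not independent of each other. Scaling multiplies each array by its own factor, so a shared mix does not fully fall out of the scaled differences. For SUC2 the change was 2.97 ± 0.48 in T73 and 1.66 ± 0.48 in ITD00185, and the difference did not pass as deposited (1.31 ± 0.67, adjusted p 0.139) but did scaled (adjusted p 0.0313), and likewise without that library (1.41 ± 0.73 as deposited, adjusted p 0.128, and 0.0118 scaled). SDA1 changed by -6.98 ± 0.82 in T73 and by 2.25 ± 0.82 in ITD00185, a difference of -9.23 ± 1.17. Without that library the ITD00185 change of SDA1 was 3.14 ± 0.73 and the difference -10.12 ± 0.97. For the hypoxic repressor ROX1 the ratio stood at 2.40, 3.72 and 1.91 at 96 h, against 7.90, 6.68 and 4.94 at 48 h, in T73. Its change there was -3.83 ± 0.69 (-1.26 scaled, which did not pass) and 5.01 ± 0.69 in ITD00185, with a difference of -8.84 ± 0.97 (-9.21 ± 1.01 without that library). In the chaperone list the difference was called lower in T73 for 20 of 33 genes and higher for 1 as deposited, and for 17 and 1 scaled. Without that library it was lower for 22 and higher for 2, and for 20 and 4 scaled. The list medians of the changes were -1.26 in T73 and 1.23 in ITD00185 (1.70 without that library). In branched-chain amino acid synthesis the difference was higher in T73 for 7 of 12 genes and lower for 0, and for 8 and 0 scaled, or 9 and 0, and 10 and 0 scaled, without that library. In sulfur and methionine it was higher for 12 of 38 and lower for 3, and for 17 and 0 scaled, or 19 and 3, and 24 and 1 scaled, without that library.

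**Figure D5:**
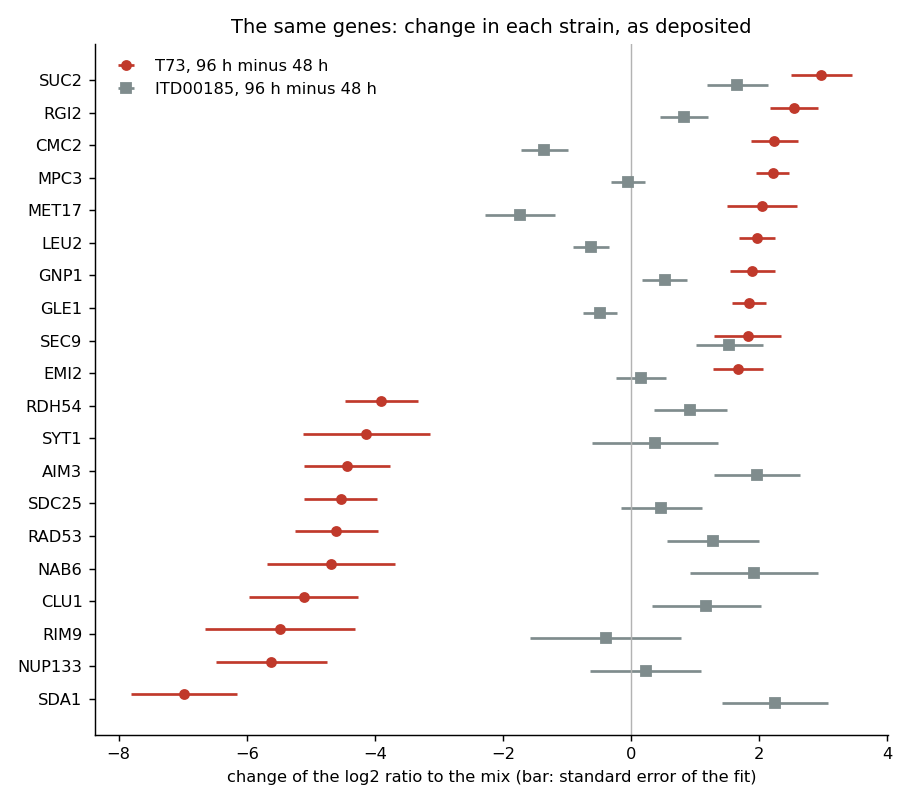
Change of the log2 ratio to the mix from 48 h to 96 h (x axis, as deposited, ± standard error of the fit) in T73 (circles) and ITD00185 (squares) for 20 genes. These were picked by the smaller of the deposited and scaled T73 changes, among genes called on both scales whose T73 arrays of the 2 times did not overlap. For SDA1 the change was -6.98 ± 0.82 in T73 and 2.25 ± 0.82 in ITD00185, and for SUC2 both changes were above 0.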

How the data were processed

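Total RNA of strain T73 and of ITD00185 at 96 h and 48 h was measured on 12 arrays, 3 per strain and time, the strain in Cy5 and a same-time sample mix in Cy3. Per the labels' protocols the RNA was linearly amplified and labelled indirectly through cDNA. The deposited values are log2 ratios, whose direction, scale and within-array normalization are not given in the sources used here. Strain over mix and base 2 are the likely reading. No array has its dyes swapped, so a dye bias of a gene stays in its ratio, and the number of arrays limits the precision.

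Probes of a gene were averaged. Of 6246 probes, 5753 were named by locus tag and 34 by synonym, and 459 kept the file's name. For 5474 genes with at least 2 values per group, limma 3.58.1 (R 4.3.3) estimated a mean for each of the 4 groups in one model. P-values were two-sided and adjusted by the Benjamini-Hochberg method, with a threshold of 0.05, and rest on biological replicates as the labels name them. The fit was also run on simulated data, drawn with the same spread for a gene in all 4 groups. That run does not speak to the unequal spreads of the real arrays. Each fit was repeated with arrays centred on the median and scaled to one median absolute deviation. "Called on both scales" means past the threshold in the same direction in both fits.

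Genes are named by rule, among those called on both scales whose 96 h and 48 h arrays do not overlap on either. These are the 10 largest changes in each direction by the smaller of both values, and up to 4 members of each list by adjusted p. A set of 20 genes was fixed by name, some of which, such as SUC2 and MET3, the rule also chose. The gene lists come from textbook roles. Members, lists and tests were chosen with earlier results of these data known. Other normalizations, array weights, filters, a replicate block, fits without 1 array and removal of the trend on coding length (lowess, span 0.5, chosen after seeing the data) were tried. Fits of named genes without 1 T73 array on scaled values, and of the strain difference without ITD00185 48 h replicate 2 on both scales, were also added after seeing the data. Coding lengths are spans of genes from start to end in the RefSeq annotation, with any introns. Of those of protein-coding genes 96.3% are multiples of 3, and sequences were not used here.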

Additional observations from a re-analysis of the deposited data

Results flagged for a closer look

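The T73 change differed from the ITD00185 change for 2080 genes of all tested (limma, interaction term). Among the 95 genes named in the report, 66 differed past the threshold both as deposited and with scaled arrays. Without the library labelled ITD00185 48 h replicate 2, which correlated best with the 96 h arrays of its strain, 65 of the 66 kept the difference on both scales, the exception being BIO4. The differences are given as deposited, T73 change minus ITD00185 change on the log2 scale, over all 12 arrays, and their causes were not tested. Higher in T73 by the most were INO1 4.12, MET17 3.78, CMC2 3.59, CIT2 3.54, SPO20 3.35, BAP2 3.22, FBP1 2.73, LEU2 2.59 and ISU1 2.49. Smaller positive differences were MET3 2.40, LEU9 2.39, GLE1 2.33, ADH1 2.27, MPC3 2.26, CHO1 2.24, ADH2 2.18, ADH5 2.05 and SOD1 1.96. The least of the positive differences were HTA1 1.93, MUP1 1.92, RGI2 1.71, RPL23B 1.46, GNP1 1.36, RPP1A 1.32, ERG28 1.22 and RPL23A 1.22.

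The most negative differences were SDA1 -9.23, ROX1 -8.84, NAB6 -6.60, AIM3 -6.40, SSA4 -6.33, CLU1 -6.29, RAD53 -5.88, NUP133 -5.84 and PUT1 -5.67. Next came RPC82 -5.58, MRP51 -5.56, DAL82 -5.26, PKH1 -5.25, SDC25 -5.01, XRN1 -4.84, RDH54 -4.82, ATG26 -4.55 and HSP104 -4.54. Differences of intermediate size were SYT1 -4.51, GCR1 -4.12, MSH5 -3.96, SOD2 -3.95, SSE2 -3.87, PFK26 -3.78, ERB1 -3.77, PDC2 -3.53 and UTP20 -3.44. Smaller negative differences were FMP16 -3.43, MDH1 -3.41, TIF3 -3.18, STE7 -3.17, HSP12 -3.15, RIM15 -3.13, ATH1 -2.68, MCM2 -2.50 and MDH2 -2.48. Still smaller were VTC2 -2.01, AXL1 -1.62, IME1 -1.61 and BIO4 -1.24. The replicate groups hold 3 arrays each, so single arrays were not tested as outliers.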

How the results depend on the processing

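With arrays scaled to one spread, 818 genes were called in T73 (496 lower), 1305 in the difference between the strains' changes and 233 in ITD00185, against 1772 (1311 lower), 2080 and 357 as deposited. Quantile normalization gave 881 (512 lower) in T73 and 1343 in the difference. Centring on the median gave 878 higher and 873 lower. Weights for arrays gave 842 higher in T73, 3587 in the difference and 3306 in ITD00185. With the trend on coding length removed, 886 were higher and 810 lower, and with scaled arrays as well 728 were called (419 lower), with 1237 in the difference. The 6 T73 arrays alone gave 744 higher and 808 lower scaled, and 994 on both scales. Leaving out 1 array at a time gave 925 to 2273 genes in T73, 175 to 693 higher and 745 to 1580 lower, 55 to 1268 on both scales, 1264 to 2903 in the difference and 21 to 2104 in ITD00185. Fewest higher and lower genes came without T73 96 h replicates 1 and 3 and T73 48 h replicate 2, most higher genes without ITD00185 48 h replicate 2, which also gave the 2104 in ITD00185. With a replicate block 1657 genes were called in T73 (443 higher, 1214 lower), 434 on both scales and 1945 in the difference. Same-numbered T73 arrays deviated together at correlations of 0.07, 0.08 and 0.27, so the numbers are not shown to pair the samples. The remaining settings (no filter on missing values or a stricter one, values beyond 10 left out) kept these counts within 1.5 times.

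Among named genes, signs turned for 4 with a value past the threshold on one side. With no value past it, signs also turned for the changes of ASP3-1, GRE1, HSP26 and SSA4 and for the differences of ATG1, DAL5, ERG11, GSY1, HOR7, PHO81, POL2 and SEC9. The change of DAL5 became 0.77 scaled, 0.81 by quantile normalization, 0.89 with length removed and scaled, and 0.83 on T73 arrays alone scaled. CLN3 became 1.07 on T73 arrays alone scaled, and its difference from ITD00185 became 1.49 scaled, 1.72 by quantile normalization and 1.59 with length removed and scaled. The difference of SES1 became 0.005 scaled and 0.11 by quantile normalization, and that of HXT5 became -0.12 with length removed and scaled. The cause was not tested for any of these. Probe intensities and backgrounds were not used here, so the signal behind a ratio is unknown.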
